A study of Homo sapiens with 4 samples.

Results

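Interferon-stimulated genes are the genes that cells switch on when interferon reaches them, and 47 of them were followed here through 2 leukemia cell lines. The members were named by symbol and found in the deposited gene count table by Ensembl identifier, and all 47 were among its 20348 genes. K562 is a human line from chronic myeloid leukemia with erythroid traits, and THP-1 is a human line from acute monocytic leukemia. Each line was kept for 72 h with the solvent DMSO or with 100 nM periplocin, a cardiac glycoside from the bark of Periploca, and poly-A RNA was sequenced. No interferon, infection or genetic change is named for any group. There was 1 library per condition and 4 in all (K562 DMSO, K562 periplocin, THP-1 DMSO and THP-1 periplocin), which the study describes as a single biological replicate. Sample titles name the controls blank, whereas library names and methods name DMSO.

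Type I and type III interferons bind cell surface receptors and activate the kinases JAK1 and TYK2, which phosphorylate STAT proteins. With IRF9 these form the ISGF3 complex, which binds a repeated GAAA element in the promoters of its targets, while interferon gamma acts mainly on another element. The products bind or cleave viral RNA, change membranes so that viruses cannot enter, sense foreign nucleic acid, modify proteins with ISG15, or feed back on the pathway, and many keep a low level without any infection.

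The promoters were read first, and the rule for choosing members did not use them. Interferon-stimulated genes include the targets of ISGF3, however, so a high share with its GAAA element was likely in advance. RefSeq gave at least 1 promoter window on GRCh38.p14 for 36 of the 47 members, running from 250 bases before an annotated start of transcription to 50 bases after it. IRF2, IRF7, IFIT2, OAS2, OASL, MX2, USP18, IFITM2, LY6E, GBP2 and TRIM22 had no entry. The interferon regulatory repeat was searched as GAAANNGAAA on the gene's strand and as TTTCNNTTTC for the other strand, with overlapping matches counted separately. At least 1 window of 26 of the 36 members (72.2%) held it, against 1195 of all 27305 genes in the promoter table (4.38%). Of the genes in both the promoter table and the deposited table, 642 of 15340 (4.19%) held it. Counted by window, it was in 31 of 48 windows of members (64.6%) and 1255 of all 35116 windows (3.57%). Of the members called higher with periplocin in THP-1, as defined further on, 17 of 20 with an entry (85.0%) held the repeat, and of those not called there 9 of 16 (56.2%). IRF9, OAS1 and HERC6 were called higher in THP-1 and had no match in the window. The palindrome TTCNNNGAA, the core of the element used by interferon gamma, was in 12 of 36 members (33.3%) and 2560 of all 27305 genes (9.38%). It was in 6 of 20 members called higher in THP-1 (30.0%) and in 6 of 16 not called there (37.5%). A match describes the letters and not a binding event.

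Stretches of 24 bases around the repeat nearest to the start site are shown for members that the later results turn on. IFIT1, IFIH1, IFITM3 and IFI6 rose in both lines, and OAS3, ISG15 and EPSTI1 responded differently in the lines. Each is written on the strand that reads GAAA first, with the repeat in capitals.
IFIT1: acctaggGAAACCGAAAggggaaa
IFIH1: gagaatcGAAACAGAAAccaaagt
IFITM3: ctgttgaGAAACCGAAActactgg
IFI6: gagtgcaGAAATAGAAActccgac
OAS3: cgggcggGAAAACGAAAccagaaa
ISG15: ggaaaggGAAACCGAAActgaagc
EPSTI1: attctgaGAAACCGAAActcagct
These lie at chr10:89392513-89392536, chr2:162318689-162318712, chr11:320879-320902, chr1:27672269-27672292, chr12:112938455-112938478, chr1:1013383-1013406 and chr13:42992275-42992298 on GRCh38.p14, and the repeat was on the gene's own strand in all but IFIT1. Along the gene it began 103 bases before the start site in IFIT1, 21 in IFIH1, 35 in IFITM3, 93 in IFI6, 12 in OAS3, 107 in ISG15 and 50 in EPSTI1.

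Whole promoter windows are shown for the member with the largest rise in each line and the largest fall in K562, among called members with at least 5 CPM (counts scaled to a common library total) on average in that line. They are RSAD2 (largest rise in K562), IFI16 (largest fall in K562) and IFIT3 (largest rise in THP-1). Where a gene had several windows the one with most matches is printed.
RSAD2: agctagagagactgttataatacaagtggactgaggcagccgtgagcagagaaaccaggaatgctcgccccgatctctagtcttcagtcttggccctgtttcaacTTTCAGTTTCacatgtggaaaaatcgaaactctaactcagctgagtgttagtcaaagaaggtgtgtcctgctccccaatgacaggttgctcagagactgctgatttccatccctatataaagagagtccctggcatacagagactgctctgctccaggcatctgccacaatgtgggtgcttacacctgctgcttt
IFI16: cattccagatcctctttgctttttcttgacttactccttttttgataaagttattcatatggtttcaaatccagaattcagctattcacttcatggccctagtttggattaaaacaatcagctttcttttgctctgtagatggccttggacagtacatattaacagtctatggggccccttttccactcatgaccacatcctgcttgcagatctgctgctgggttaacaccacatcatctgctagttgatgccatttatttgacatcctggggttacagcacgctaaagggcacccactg
IFIT3: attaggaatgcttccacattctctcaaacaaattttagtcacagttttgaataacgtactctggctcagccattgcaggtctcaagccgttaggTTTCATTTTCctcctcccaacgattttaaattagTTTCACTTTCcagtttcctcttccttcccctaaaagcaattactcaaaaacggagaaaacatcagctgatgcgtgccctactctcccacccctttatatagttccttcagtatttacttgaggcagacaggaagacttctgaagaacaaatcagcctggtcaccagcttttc
They lie at chr2:6877527-6877826, chr1:159008741-159009040 and chr10:89327747-89328046, all on the plus strand, and the capitals mark the repeat as it reads on that strand. RSAD2 held 1 match, IFIT3 held 2 and IFI16 none.

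The authors deposited expected counts, which were rounded to whole numbers. Library totals lay between 16381172 and 20622719 counts, and 2.07% to 5.62% of them came from mitochondrial genes. Counts are given below in the order DMSO then periplocin, and every fold change is corrected for library size by TMM scaling. A member was called higher or lower when it changed at least 2-fold with a Benjamini-Hochberg adjusted p under 0.05 in edgeR's exact binomial test over all genes with a count in the pair. With 1 library per condition this test, and the exact 95% intervals given with folds, cover counting error only and compare libraries, not conditions. In RNA from whole cultures, fewer cells of a type and less RNA per cell cannot be told apart.

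Periplocin was followed by higher interferon-stimulated gene counts across most of the list in THP-1, and by a mixed response of few members in K562. In THP-1, 27 of 47 members (57.4%) were called higher, where 8.28% of all 16020 genes tested were, and none was called lower, where 9.76% of all genes were. Of the 47, 46 had a log2 fold change above 0, PLSCR1 being the exception. In K562, 43 members had a count, and 6 (14.0%) were called higher against 8.18% of all 15919 genes, and 3 (6.98%) lower against 10.1%. IFIT1, IFIH1, IFITM3, TRIM22 and IFI6 rose in both lines, RSAD2 rose in K562, and IFI16, CMPK2 and PLSCR1 fell in K562. Altogether 31 members were called in at least 1 line and 16 in neither. The shares of all genes called in at least 1 line, or called higher in both, were not computed.

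**Figure D1:**
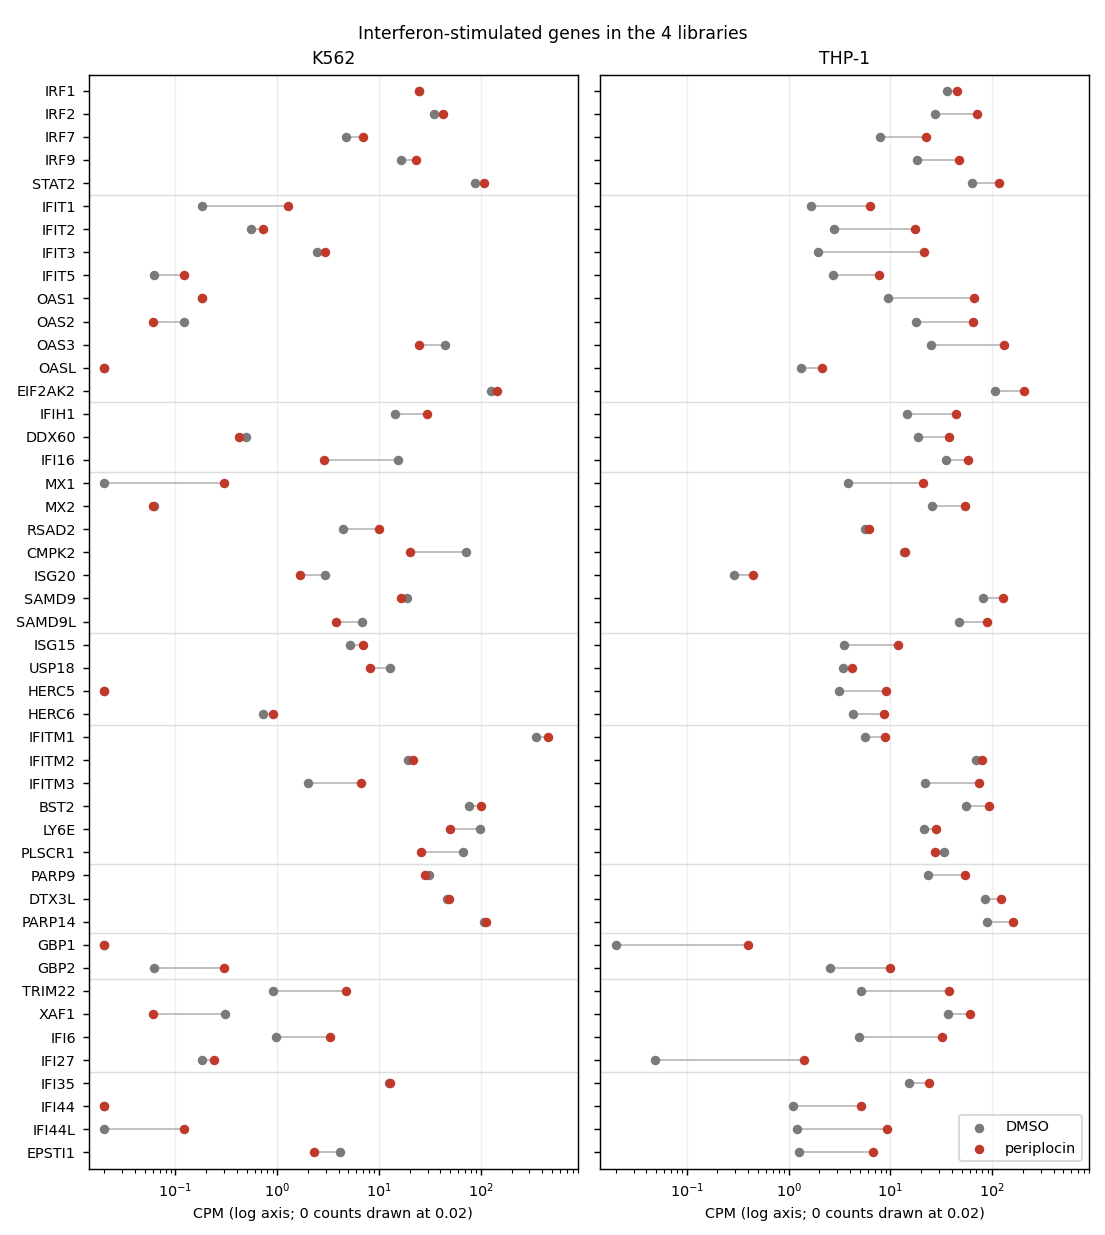
CPM of each of the 47 members (log axis, 0 counts drawn at 0.02) in the DMSO library (grey) and the periplocin library (red) of K562 (left) and THP-1 (right), with lines between the groups of genes by role. In THP-1 the red point lies to the right for 46 members, whereas in K562 it lies on either side and 9 members have 3 counts or fewer in both libraries.

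The size of the shift is seen in members with at least 1 CPM on average in the line. Their median log2 fold change was 1.15 over 44 members in THP-1, against -0.02 over all 12341 such genes, and 43 of the 44 (97.7%) lay above 0, against 48.5% of all genes. In K562 the median was 0.11 over 30 members, against -0.01 over 11863 genes, and 18 (60.0%) lay above 0, against 49.2%. The members' CPM summed to 1053 and 2140 in THP-1 and to 1314 and 1352 in K562. The K562 sum was carried to 26.6% and 33.8% by IFITM1, and without it the sums were 964 and 895 in K562 against 1048 and 2131 in THP-1.

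**Figure D2:**
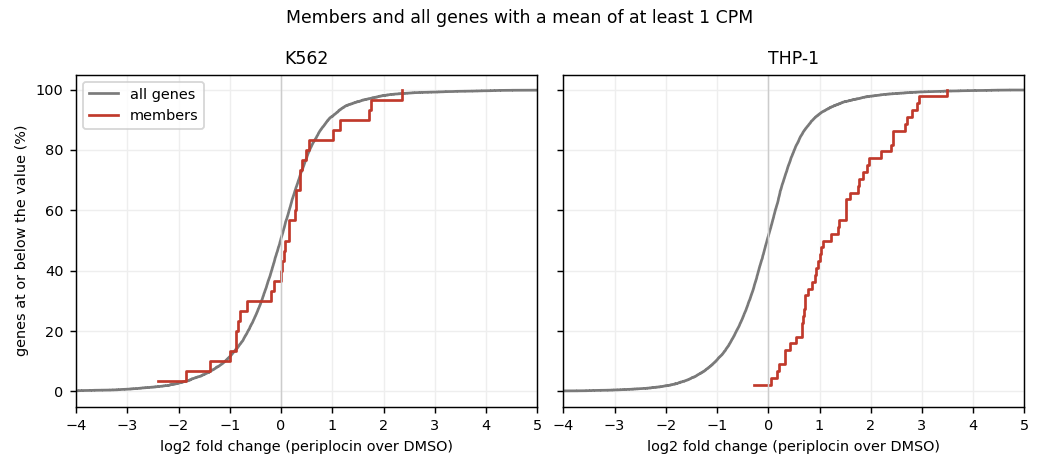
Cumulative share of genes (%) at or below each log2 fold change, periplocin over DMSO, for members (red) and all genes (grey) with at least 1 CPM on average in K562 (left) and THP-1 (right). The members' curve in THP-1 crosses 50% near its median of 1.15, far to the right of all genes, while in K562 both curves run close together around 0.

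Of the transcription factors that carry the signal, 3 of 5 rose in THP-1 and 0 of 5 were called in K562. Of all genes, 8.28% were called higher in THP-1, and 8.18% higher and 10.1% lower in K562. IRF9, the DNA-binding part of ISGF3, rose from 374 to 828 counts in THP-1 (2.60-fold, interval 2.30 to 2.94) and counted 271 and 386 in K562. IRF7, the factor that amplifies interferon production, rose from 164 to 398 in THP-1 (2.85-fold, 2.37 to 3.44) and counted 77 and 115 in K562. IRF2, which competes with IRF1 for its sites, rose from 566 to 1243 in THP-1 (2.58-fold, 2.33 to 2.85), with 34.3 and 42.1 CPM in K562. The 3 intervals overlapped. STAT2, a part of ISGF3, was 1.87-fold higher in THP-1 (1291 and 2058 counts, interval 1.74 to 2.01), under the 2-fold threshold, and IRF1 was 1.26-fold higher (742 and 796). In K562 the 5 log2 fold changes lay between 0.01 for IRF1 and 0.55 for IRF7.

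Most RNA-binding antiviral proteins rose in THP-1, with 7 of 9 called there and 1 of 8 with counts in K562. Of all genes, 8.28% and 8.18% were called higher. The IFIT proteins hold viral RNA by its 5′ end. IFIT3 rose from 40 to 382 counts in THP-1, an 11.2-fold change (interval 8.08 to 15.9) and the largest of any member with at least 5 CPM there, and stayed within counting error in K562 (40 and 49 counts, 1.20-fold, 0.776 to 1.87). IFIT2 rose from 57 to 311 in THP-1 (6.40-fold, 4.81 to 8.65) and had 9 and 12 counts in K562. IFIT1 rose from 34 to 111 in THP-1 (3.83-fold, 2.59 to 5.80) and also in K562, where 3 and 21 counts gave a ratio of 6.87 with a wide interval of 2.05 to 36.0. IFIT5 rose from 56 to 136 in THP-1 (2.85-fold) and had 1 and 2 counts in K562. All 4 IFIT genes thus rose in THP-1, from low counts. IFIT2 shares 65 exon bases on the opposite strand with LIPA, which had 2315 and 2122 counts in THP-1.

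The oligoadenylate synthetases make the second messenger that activates the ribonuclease RNase L. OAS1 rose from 197 to 1170 counts in THP-1 (6.97-fold, 5.99 to 8.14), OAS2 from 371 to 1144 (3.62-fold, 3.22 to 4.08) and OAS3 from 516 to 2328 (5.29-fold, 4.81 to 5.83). In K562 OAS1 had 3 counts in each library and OAS2 had 2 and 1, and no fold is given where both libraries have 3 counts or fewer. OAS3 was well covered there and was 0.544-fold, with 731 and 405 counts (interval 0.481 to 0.615), lower but short of 2-fold. The 3 genes lie side by side on chromosome 12 of GRCh38 in the order OAS1 (112906777 to 112933222), OAS3 (112938352 to 112973249) and OAS2 (112978395 to 113011723), all on the plus strand, and of these only the middle gene had more than 3 counts in K562. Their relative OASL, on the same chromosome from 121019111, had 27 and 38 counts in THP-1 and 0 in both K562 libraries. EIF2AK2, the gene of the kinase PKR that stops translation on double-stranded RNA, was among the most abundant members, with 2180 and 3625 counts in THP-1 (1.95-fold, 1.85 to 2.06) and 2078 and 2360 in K562 (1.12-fold, 1.05 to 1.18), and was called in neither line.

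Of the nucleic acid sensors, IFIH1 rose in both lines and IFI16 fell in K562. IFIH1, the gene of the RNA sensor MDA5, had 236 and 487 counts in K562 (2.03-fold, 1.73 to 2.38), and in THP-1 301 and 780 (3.04-fold, 2.66 to 3.48). IFI16, a DNA-binding protein of the nucleus, fell from 250 to 48 counts in K562 (0.189-fold, 0.135 to 0.258), the largest fall of any member, and counted 731 and 1013 in THP-1 (1.63-fold, 1.48 to 1.79). DDX60, a helicase linked to RNA sensing, rose from 382 to 659 in THP-1 (2.02-fold, 1.78 to 2.30), where the interval spans the 2-fold threshold, and had 8 and 7 counts in K562.

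Among enzymes and GTPases against viral replication, 2 of 7 rose in THP-1, 1 rose in K562 and 1 fell in K562. Of all genes, 8.28%, 8.18% and 10.1% did, so 1 of 7 each way in K562 is no result about the group. MX1, a dynamin-like GTPase, rose from 79 to 366 counts in THP-1 (5.44-fold, 4.25 to 7.02), and it was not called in K562, where 0 and 5 counts gave a ratio with a lower limit of 0.900. MX2, its neighbour on chromosome 21 with anti-retroviral activity, rose from 533 to 958 in THP-1 (2.11-fold, 1.89 to 2.35) and had 1 count in each K562 library. In K562 both Mx genes thus had 5 counts or fewer.

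RSAD2, the gene of viperin, which makes a chain-terminating nucleotide, rose from 73 to 164 counts in K562 (2.21-fold, 1.66 to 2.95) and counted 115 and 110 in THP-1 (1.12-fold, 0.856 to 1.47). CMPK2, a mitochondrial nucleotide kinase, fell from 1183 to 334 in K562 (0.277-fold, 0.245 to 0.313) and counted 278 and 245 in THP-1 (1.03-fold, 0.867 to 1.23). These neighbours lie head to head on chromosome 2 (CMPK2 from 6840570 to 6866635 on the minus strand, RSAD2 from 6865806 to 6898239 on the plus strand), and in K562 they went in opposite directions. In GENCODE release 29 their exons share 14 bases, and whether reads were counted by strand is not given in the sources used here. SAMD9L, a regulator of endosomes and of cell growth, was 1.91-fold higher in THP-1 (963 and 1568 counts) and 0.544-fold in K562 (112 and 62), and SAMD9 had 1675 and 2283 counts in THP-1 and 305 and 272 in K562. The exonuclease gene ISG20 had 48 and 28 counts in K562 and 6 and 8 in THP-1. None of these 3 was called.

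Of the ISG15 system, a ubiquitin-like modifier with its ligases and protease, 3 of 4 genes rose in THP-1, against 8.28% of all genes. None of the 3 with counts was called in K562. ISG15 rose from 72 to 208 counts in THP-1 (3.39-fold, 2.58 to 4.50) and counted 85 and 115 in K562 (1.33-fold, 0.995 to 1.78). HERC5, the main ISG15 ligase, rose from 65 to 159 in THP-1 (2.87-fold, 2.14 to 3.89) and had 0 counts in both K562 libraries, which allows up to 3 counts in each. HERC6 rose from 89 to 154 in THP-1 (2.03-fold, 1.55 to 2.67), near the threshold, and had 12 and 15 counts in K562. USP18, the protease that removes ISG15 and damps the receptor, did not move with them, with 70 and 75 counts in THP-1 (1.26-fold, 0.895 to 1.77) and 212 and 136 in K562 (0.630-fold, 0.504 to 0.785).

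Proteins of the membrane that restrict viral entry or release held the most abundant members, and only IFITM3 was called higher. IFITM3 rose in both lines, with 33 and 110 counts in K562 (3.27-fold, 2.20 to 4.99), and in THP-1 455 and 1323 (3.41-fold, 3.06 to 3.80). Its close relatives on chromosome 11 were not called, with 5729 and 7575 counts for IFITM1 and 316 and 358 for IFITM2 in K562, and 116 and 157 for IFITM1 and 1440 and 1421 for IFITM2 in THP-1. Of the exon bases of IFITM1, 351 (32.5%) are also annotated to IFITM2 on the same strand, so the division of counts between these genes is uncertain. Reads could also be split between these relatives and IFITM3, which was not tested. BST2, the gene of tetherin, was 1.71-fold higher in THP-1 (1136 and 1653) and 1.29-fold in K562 (1247 and 1644).

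PLSCR1, a phospholipid scramblase that also restricts viruses, fell from 1101 to 427 counts in K562 (0.381-fold, 0.340 to 0.426) and was the 1 member with a log2 fold change under 0 in THP-1, at -0.28 (694 and 488). LY6E, a membrane-anchored entry factor, sat at the threshold in K562 with 1614 and 823 counts (0.501-fold, 0.460 to 0.545) and was not called, and counted 440 and 501 in THP-1 (1.34-fold, 1.17 to 1.52). All 3 members that fell in K562 were well covered in both lines.

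In the remaining groups the rises were mostly in THP-1. PARP9, which joins DTX3L in a complex that modifies histones and viral proteins, rose from 482 to 963 counts in THP-1 (2.34-fold, 2.10 to 2.62) and counted 508 and 472 in K562. DTX3L had 1747 and 2154 counts in THP-1 and PARP14, a macrophage regulator, 1831 and 2803, at 1.45-fold and 1.80-fold without a call, and in K562 they were at 1.05-fold and 1.03-fold. PARP9 and DTX3L share 217 exon bases on opposite strands. Of the guanylate-binding proteins, which attack vacuoles that hold microbes, GBP2 rose from 53 to 177 in THP-1 (3.92-fold, 2.87 to 5.43) and had 1 and 5 counts in K562. GBP1 went from 0 to 7 counts in THP-1 and was at 0 in K562. Its THP-1 ratio was 2.74 with the DMSO library set to the floor of 3 counts, and the exact lower limit was 1.69.

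TRIM22, a ubiquitin ligase that represses viral transcription, rose in K562 from 15 to 79 counts (5.17-fold, 2.95 to 9.67), and in THP-1 it went from 105 to 669 (7.48-fold, 6.08 to 9.27). IFI6, an inner membrane protein that opposes apoptosis, rose in K562 from 16 to 55 (3.38-fold, 1.91 to 6.31), and in THP-1 it went from 101 to 565 (6.56-fold, 5.30 to 8.19). Its relative IFI27 went from 1 to 25 counts in THP-1, a ratio of 29.3 with an interval of 4.80 to 1204, and had 3 and 4 in K562. XAF1, which promotes apoptosis, was not called in either line, with 760 and 1060 counts in THP-1 and 5 and 1 in K562.

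The last 4 genes have less settled functions. IFI44 rose from 23 to 91 counts in THP-1 (4.64-fold, 2.91 to 7.69) and its neighbour IFI44L from 25 to 164 (7.70-fold, 5.03 to 12.2), with 0 counts in both K562 libraries for IFI44 and 0 and 2 for IFI44L. EPSTI1, induced in macrophages and in tumour epithelium, rose from 26 to 120 in THP-1 (5.41-fold, 3.52 to 8.62) and went the other way in K562 with 67 and 38 (0.557-fold, 0.364 to 0.841), without a call. IFI35 had 315 and 426 counts in THP-1 and 207 and 210 in K562.

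The DMSO libraries show how differently the lines started. In THP-1 DMSO 22 of 46 members with counts (47.8%) were called higher than in K562 DMSO, against 21.7% of all 16431 genes, and 6 (13.0%) lower, against 19.5%. The 6 were CMPK2, ISG20, USP18, IFITM1, LY6E and EPSTI1. In K562 DMSO 13 members had 3 counts or fewer, and in THP-1 DMSO 2 had (GBP1 and IFI27). OASL, HERC5, GBP1 and IFI44 had 0 counts in both K562 libraries. MX2 counted 1 and 533 in the DMSO libraries of K562 and THP-1, OAS2 2 and 371, XAF1 5 and 760, and DDX60 8 and 382. IFITM1 was the opposite case, with 5729 and 116.

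Levels can be compared between genes only per length, and were divided by the length of all annotated exons to give CPM per kilobase. On this scale IFITM1 was by far the highest member in K562, at 324 and 424, followed by BST2 at 68.0 and 88.7 and LY6E at 37.3 and 18.8. In THP-1 BST2 led at 49.2 and 83.4, then IFITM2 at 45.3 and 52.0 and IFITM3 at 16.4 and 55.4. IFI6 went from rank 15 to rank 4 of the members in THP-1, from 5.66 to 36.9 CPM per kilobase. IFIT1 stayed low among them in spite of its rise, at 0.357 and 1.36 in THP-1.

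The lines were compared directly by subtracting the log2 fold change in K562 from that in THP-1 for every gene with at least 10 counts over the 4 libraries, with a Wald test from counting error alone, adjusted over 14929 genes. The difference was called, at 1 log2 unit or more, for 14 of 46 members (30.4%) in favour of THP-1, where 10.5% of all genes were, and for none in favour of K562, where 9.42% were. The 14 were IRF2, IFIT2, IFIT3, OAS1, OAS3, IFI16, CMPK2, SAMD9L, ISG15, LY6E, PLSCR1, PARP9, IFI27 and EPSTI1. OAS3 differed by 3.28 log2 units (interval 3.06 to 3.50), IFIT3 by 3.22 (2.46 to 3.98), EPSTI1 by 3.27 (2.44 to 4.11) and IFI16 by 3.11 (2.64 to 3.57). In OAS3 and EPSTI1 the gap joins a rise in THP-1 to a lower count in K562, in IFIT3 it is the THP-1 rise, and in IFI16 mainly the K562 fall. OAS1 and IFI27 had only 3 to 4 counts in each K562 library and entered through THP-1, so their differences are not usable. Among the 37 members tested with more than 4 counts in a K562 library, a limit set after their values were seen, 12 differences were called. The share of all genes called under this limit was not computed. With an assumed dispersion of 0.04 between replicates, a setting chosen after seeing the data, IFIT3, OAS3, IFI16, CMPK2 and EPSTI1 were called, and with 0.16 none of the members.

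The members that rose in both lines had no difference called between the lines. The difference was 0.06 for IFITM3 (interval -0.52 to 0.64), 0.54 for TRIM22 (-0.30 to 1.38), 0.97 for IFI6 (0.12 to 1.82), 0.59 for IFIH1 (0.29 to 0.88) and -0.80 for IFIT1 (-2.52 to 0.92). RSAD2, higher in K562 alone, differed by -0.97 (-1.52 to -0.43), short of 1 unit. These intervals do not show that the lines respond alike. In the plot of one line's response against the other, 32 of the 34 members with enough counts lay on the THP-1 side. The share of all genes on that side was not computed.

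**Figure D3:**
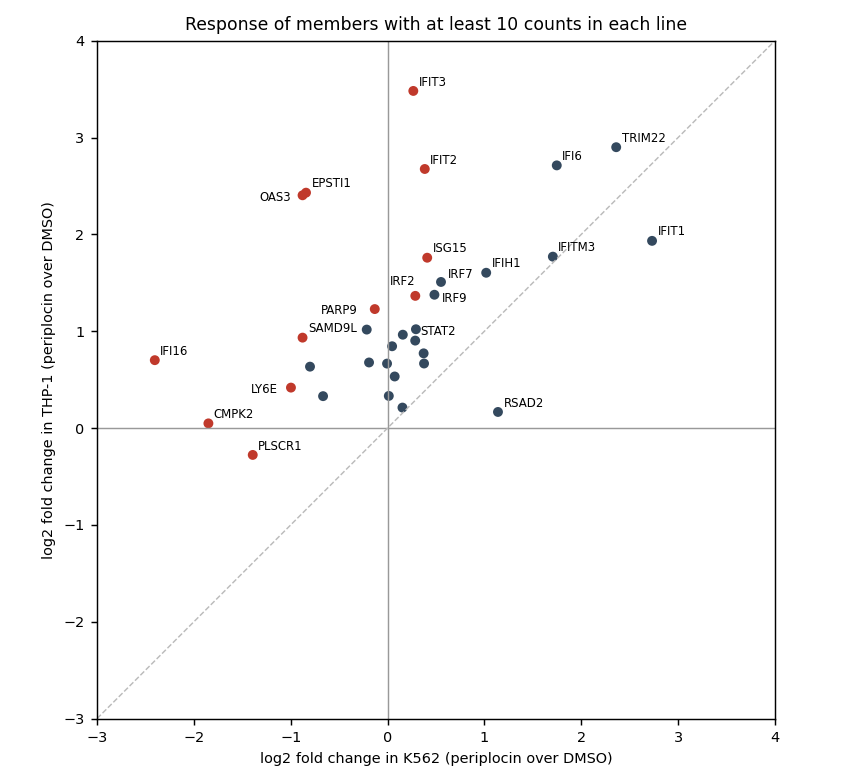
Log2 fold change in THP-1 against that in K562 for the 34 members with at least 10 counts in the pair of each line, with the diagonal of equal response dashed. Red points are members whose difference between the lines was called, and 32 of 34 points lie above the diagonal, IFIT1 and RSAD2 being below it. The share of all genes above the diagonal was not computed.

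A fit over all 4 libraries by line and by treatment takes the disagreement of the lines as its only error and has 1 residual degree of freedom. In edgeR's quasi-likelihood test 0 of 45 members had an adjusted p under 0.05, as did 0% of all 13584 genes, and the smallest adjusted p of a member was 0.355. At an unadjusted p under 0.05 there were 11 of 45 members, all higher, against 1538 of 13584 genes (11.3%) in either direction. DESeq2 with the same terms called 2 of 45 members, TRIM22 (adjusted p = 0.0108) and IFITM3 (adjusted p = 0.0321), among 130 of 13584 genes. It gave no adjusted p for 2634 of the genes tested, which could therefore not be called. Members such as IFIT1, IFI44L and EPSTI1 were among these.

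The other genes of the pathway came from lists of ligands, receptors and kinases, sensors, and negative regulators. The interferon ligands themselves were not detected at this depth, with 20 of 21 genes at 0 in all 4 libraries, which allows up to 3 counts in each, and with 1 count of IFNA21 in THP-1 periplocin. Of the 9 receptor and JAK kinase genes, 1 rose and 1 fell in K562, and 1 rose in THP-1, near the shares of all genes (8.18% higher and 10.1% lower in K562, 8.28% higher in THP-1). IFNGR1, a chain of the interferon gamma receptor, rose from 1210 to 2503 counts in THP-1 (2.43-fold, 2.27 to 2.60). JAK1, the kinase shared by all interferon receptors, fell from 3432 to 1708 in K562 (0.489-fold, 0.461 to 0.518), while JAK2, used by interferon gamma and erythropoietin receptors, rose from 1297 to 3508 (2.66-fold, 2.49 to 2.83).

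Of 17 sensing and induction genes with counts, 1 rose and 3 fell in K562, and 3 rose and 1 fell in THP-1, against 8.18%, 10.1%, 8.28% and 9.76% of all genes. In K562 STING1, the adaptor of cytosolic DNA sensing, fell from 1727 to 671 counts, CGAS, the sensor that feeds it, from 23 to 6, and the kinase gene IKBKE from 146 to 46. These moved down in the line where IFI16 also fell. In THP-1 the endosomal RNA sensors TLR7 and TLR8 rose from 10 to 193 and from 6 to 71 counts, and IRF8, a factor of monocyte development, fell from 12161 to 4323. TLR9, the endosomal DNA sensor, rose in both lines, with 5 and 16 counts in K562, and with 90 and 183 in THP-1. Of 7 negative regulators, SOCS1, which blocks JAK kinases, fell from 336 to 124 in K562 and the phosphatase gene PTPN6 from 122 to 56, and SOCS3 rose from 63 to 265 in THP-1.

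**Figure D4:**
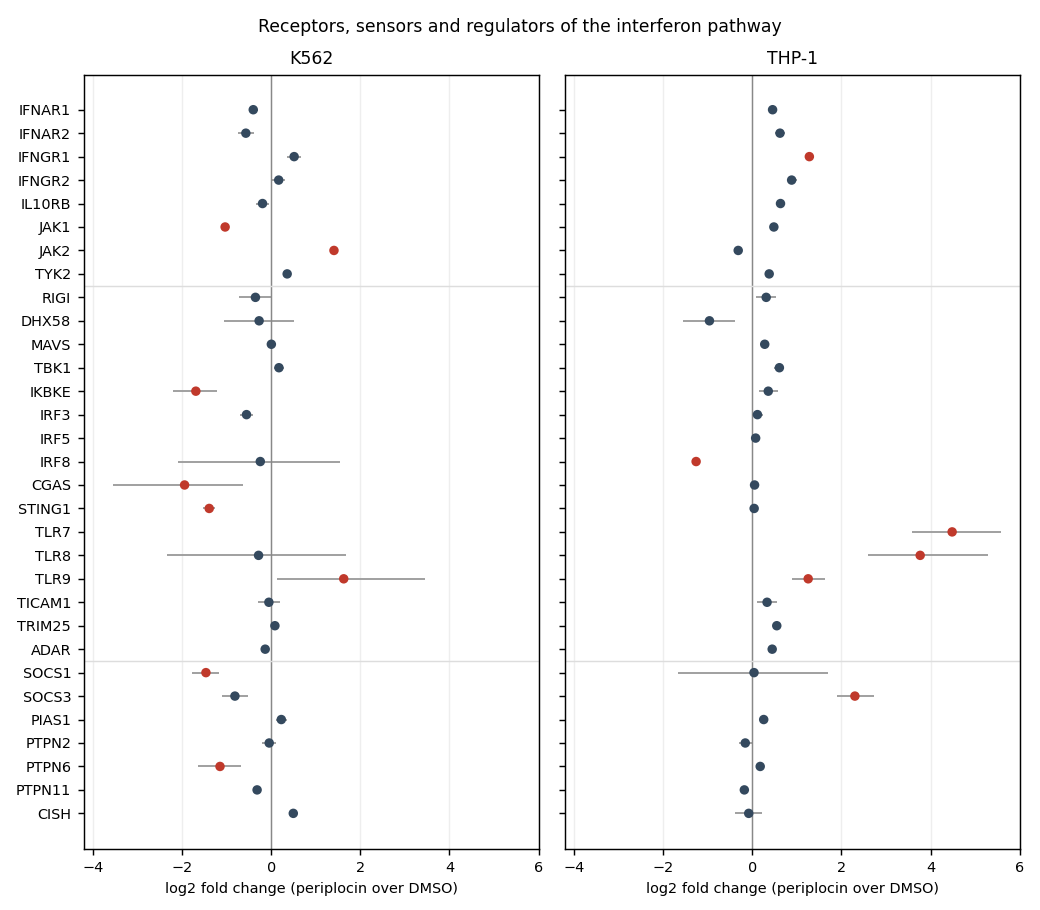
Log2 fold change, periplocin over DMSO, of receptors and JAK kinases (top), sensing and induction genes (middle) and negative regulators (bottom) with at least 10 counts in the pair, in K562 (left) and THP-1 (right). Red points are called genes and bars are exact 95% intervals from counting error, and in K562 the red points for JAK1 and JAK2 lie on opposite sides of 0.

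The lines carried their defining markers, and some of these moved with the treatment. Of all genes, 8.18% were called higher and 10.1% lower in K562, and 8.28% higher and 9.76% lower in THP-1. The 8 erythroid markers summed to 2043 and 7863 CPM in K562, with 7 called higher, and to 10.4 and 7.79 CPM in THP-1. The 8 monocytic markers summed to 742 and 831 CPM in THP-1 (1 higher, 2 lower) and to 94.7 and 84.4 in K562. In THP-1 FCGR1A, the 1 called higher, went from 83.6 to 226 CPM, while the median log2 fold change of these markers was -0.29. Genes of monocyte to macrophage maturation summed to 391 and 862 CPM in THP-1, where 7 of 12 rose, among them CD14 (8 and 382 counts) and CCL2 (8 and 349), and to 24.2 and 47.1 CPM in K562, with 4 higher and 1 lower. Summed, these maturation genes thus rose in the same THP-1 library as the interferon-stimulated genes. CSF1R in this list went the other way there (3086 and 2286 counts, 0.869-fold, not called). CD163, FCGR3A and MRC1 had 4 counts or fewer in both THP-1 libraries. CD14 was called higher in K562 as well (1 and 69 counts). The part of these shifts in the members' changes was not tested.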

How the data were processed

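Poly-A RNA of K562 and THP-1 cells was sequenced in 4 libraries, 1 per condition. The authors deposited one table of expected counts per gene and library, without normalization or pooling, and 87.4% to 88.3% of the values per library equal a whole number exactly, zeros included (83.2% to 83.9% of values above 0). The submitters' processing notes list hg38, HISAT2 and StringTie 1.3.1 without saying what each did, and the counting program, annotation and use of strand are not given in the sources used here. The methods name the T7 platform and the labels an Illumina instrument. The table had 0 unused columns, and 20310 of its 20348 identifiers were matched to symbols.

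Expected counts were rounded to whole numbers. TMM factors, the exact binomial test at a dispersion of 0, the quasi-likelihood fit (10 counts or more in 2 or more libraries, biological coefficient of variation 0.317) and Benjamini-Hochberg adjustment over all genes were computed with edgeR 4.0.16 in R 4.3.3, and DESeq2 1.42.0 was an alternative. The prior count was 0.125 and the floor 3 counts. Intervals and floors cover counting error only, and expected counts are not independent molecules. Exons and positions are from GENCODE release 29 on GRCh38, and promoters from RefSeq on GRCh38.p14. Figures were drawn with matplotlib 3.10.9 in Python 3.11.15.

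The members and gene lists were chosen with earlier results of these data known. All 47 members could be named, and of the other pathway genes those called in at least 1 line and the ligand with a count, while 1 further gene of that rule is not reported here. CD14, CCL2, CSF1R, CD163, FCGR3A, MRC1 and FCGR1A fall outside this, and LIPA was named for its overlap, and all were chosen with their values in view. On simulated counts with 200 changed genes, the tests recovered 199 in the K562 pair (3 other calls among 15500 genes), 199 in the THP-1 pair (3 among 15707), 198 for the difference between lines (2 among 14930) and 200 in the fit over 4 libraries (15 among 13905). The simulated counts carried counting error only, and only genes well covered in both lines were changed. For the fit over 4 libraries both lines were given the same change. Recovery was therefore nearly fixed in advance, and it does not describe genes with few counts or spread between replicates. Alternatives were other normalizations, filters, prior counts, fold thresholds and assumed dispersions. Protein sequences were not used here.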

Additional observations from a re-analysis of the deposited data

Results flagged for a closer look

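The responses of 14 members differed between the lines by a Wald test of the difference itself, which covers counting error only and has no replicate behind it. The difference is the log2 fold change in THP-1 minus that in K562. Members with at least 250 counts in the better covered K562 library were IRF2 at 1.08, OAS3 at 3.28, IFI16 at 3.11, CMPK2 at 1.90, LY6E at 1.42, PLSCR1 at 1.12 and PARP9 at 1.36. Members with fewer counts there were IFIT2 at 2.29, IFIT3 at 3.22, SAMD9L at 1.81, ISG15 at 1.35, EPSTI1 at 3.27, OAS1 at 2.83 and IFI27 at 4.32, and the last pair had 4 counts or fewer in both K562 libraries, too few for a usable K562 response. In CMPK2, PLSCR1, LY6E and IFI16 the lower K562 count makes most of the difference, and in IRF2, IFIT2, IFIT3, ISG15 and PARP9 the higher THP-1 count does.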

How the results depend on the processing

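No paired analysis was possible because each condition had 1 library and the labels give no replicate numbers, and for the same reason no replicate could be left out. The fit over 4 libraries has the line as a term, so it sets each periplocin library against the DMSO library of its line. An assumed dispersion of 0.16 between replicates moved most counts of members called. In K562 they went from 6 higher and 3 lower to 0 and 0, where 0.364% and 0.264% of all genes were called. In THP-1 they went from 27 higher to 1 (IFIT3, 2.13% of members), where 0.362% of all genes were higher. Between the DMSO libraries they went from 6 lower to 3, where 8.8% of all genes were lower. For the difference between the lines they went from 14 to 0, where 0.147% of all genes were called. At a dispersion of 0.04, 23 of 47 members (48.9%) were higher in THP-1, where 4.75% of all genes were. In K562 4 were higher (9.3%) and 3 lower (6.98%), where 4.89% and 5.97% of all genes were. For the difference, where 0.04 was chosen after seeing the data, 5 members and 3.24% of all genes were called. Under a 4-fold threshold 2 members were higher and 1 lower in K562 (2.81% and 3.22% of all genes), and 12 were higher in THP-1 (3.28% of all genes). A filter at a mean of 5 CPM left 2 of 24 members higher in K562 (8.33%), near the 7.24% of all genes there. DESeq2 in place of edgeR's quasi-likelihood test called 2 members in the fit over 4 libraries instead of 0, and 130 genes instead of 0, and without the filter edgeR called 0 members and 2 genes. The log2 fold change of IFI35 in K562, -0.01, became 0.0207 with DESeq2's size factors and 0.0050 with total counts, all far from any call. These alternatives change the test by construction (more assumed spread, a larger fold, fewer genes), and other causes were not tested. The median log2 fold change lay between 0.06 and 0.16 in K562 and between 1.08 and 1.23 in THP-1 under every filter and scaling run. Of 773 single-member values under alternatives, 62 lost their call, 35 of them at a dispersion of 0.16, 21 at the 4-fold threshold and 6 at a dispersion of 0.04. Counts of 3 or fewer leave 9 members without a usable response in K562.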
